A study of Homo sapiens with 24 samples.

Results

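The NDRG family (N-myc downstream regulated genes) comprises 4 paralogous human genes, NDRG1, NDRG2, NDRG3 and NDRG4, and their transcripts were followed here through hypoxia and activation of the aryl hydrocarbon receptor. The 4 members were taken by gene symbol from the count of every library, and all 4 were present among the 23106 gene symbols counted. NDRG1, NDRG2 and NDRG3 were among the 11735 genes with enough reads to be tested, whereas NDRG4 was not.

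RNA was sequenced from RCC4+VHL cells, a clear cell renal carcinoma line in which the missing von Hippel-Lindau protein (VHL) had been put back by stable transfection, so that oxygen again controls the HIF-α subunits. The 24 libraries formed 4 groups of 6, in which cells were given vehicle (normoxia + DMSO, hypoxia + DMSO) or ligand (normoxia + ITE, hypoxia + ITE). Normoxia was 21% oxygen and hypoxia 0.5% oxygen, each for 6 h, with 100 nM ITE, an indole-derived ligand of the aryl hydrocarbon receptor (AHR), or 0.1% DMSO as its vehicle. All groups, controls included, carried the VHL plasmid, had been kept under G418 and were grown without phenol red in charcoal-treated serum before treatment. The line is a stably transfected clone, and the study describes the replicates as independent.

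NDRG proteins are cytoplasmic members of the alpha/beta-hydrolase fold superfamily without known enzymatic activity. NDRG1 is a stress-responsive gene whose transcription is raised by hypoxia-inducible factors (HIF) and repressed by MYC, and its protein is a substrate of the kinases SGK1 and GSK3. NDRG2 is best known in astrocytes and as a growth suppressor silenced in many tumours. NDRG3 is known as a protein that lactate stabilises in hypoxia, and NDRG4 as a gene of heart and brain. HIF and AHR both pair with ARNT (HIF-1β), which is why hypoxia and ITE were combined in the same cells.

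RefSeq start-site windows (GRCh38.p14, 250 bases before to 50 after each annotated start) were analysed for NDRG2 and NDRG4 only, with 5 and 4 alternative starts respectively. They were searched on both strands for ACGTG, the variant that HIF favoured in the study, and for GCGTG, the variant that AHR preferred. The study writes the HIF motif as RCGTG, in which R is A or G, so a GCGTG match fits that motif too. Of all 35116 windows, 21.4% held ACGTG and 36.5% held GCGTG. None of the 9 NDRG2 and NDRG4 windows held ACGTG. The AHR core was found in 3 of 5 windows of NDRG2, of which 2 overlap and hold the same match, so that NDRG2 had 2 separate sites. It was found in 1 of 4 windows of NDRG4, in 4 copies. These stretches are shown because NDRG2 and NDRG4 are the comparators of NDRG1 below. Capitals mark GCGTG or its reverse complement. The NDRG2 stretches are chr14:21025136-21025220 (a) and chr14:21070983-21071067 (b), both on the minus strand, and the NDRG4 stretch is chr16:58463512-58463714 (plus strand), all upstream of the start and read 5′ to 3′ on the gene's strand.
NDRG2 a: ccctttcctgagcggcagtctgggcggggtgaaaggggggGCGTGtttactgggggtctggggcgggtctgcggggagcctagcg
NDRG2 b: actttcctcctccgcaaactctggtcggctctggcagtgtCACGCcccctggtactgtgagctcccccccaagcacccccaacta
NDRG4: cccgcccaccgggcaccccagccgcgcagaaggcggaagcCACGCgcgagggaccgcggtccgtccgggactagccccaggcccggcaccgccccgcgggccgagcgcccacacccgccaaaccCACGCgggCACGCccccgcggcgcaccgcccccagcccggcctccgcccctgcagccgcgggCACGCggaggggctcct
A match in such a window is a description of letters and not evidence of binding.

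The depth of the libraries was uneven, from 770094 to 93851342 counts with a median of 7981993. In hypoxia + DMSO replicate 2, the shallowest, 3 counts equalled 4.12 CPM (counts scaled to a common effective library size by TMM), and in hypoxia + ITE replicate 1 they equalled 2.23 CPM. The floor of 3 counts was as low as 0.03 CPM in the deepest library, and such floors cover counting error only. Agreement between replicates was closer in normoxia than in hypoxia, with the lowest correlation of log2 CPM between libraries of a group at 0.971 in normoxia + DMSO, 0.973 in normoxia + ITE, 0.873 in hypoxia + DMSO and 0.831 in hypoxia + ITE. VHL reached 701 CPM in hypoxia + ITE replicate 6, against a median of 216 CPM in that group. The renal and epithelial markers PAX8, PAX2, KRT8, KRT18, KRT19, EPCAM and VIM were present, and CA12 did not pass the filter on low counts. The leukocyte, endothelial, hepatocyte and glial markers PTPRC, PECAM1, ALB and GFAP all lay at or below a group mean of 0.151 CPM. Such means do not describe every library. In normoxia + DMSO the SD exceeded the mean for PECAM1 (0.135 ± 0.331 CPM), PTPRC (0.0368 ± 0.0902 CPM) and CA12 (1.15 ± 2.78 CPM, n = 6). It did so too for the HIF targets CA9 (0.0798 ± 0.195 CPM) and EGLN3 (0.595 ± 1.46 CPM). An SD so far above the mean arises where a single library of the group holds all or nearly all of the signal. Whether it was the same library for each gene is not shown, and the cause was not tested.

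The 4 genes lie on different chromosomes, and coordinates are given on GRCh37 with the GENCODE annotation. NDRG1 is on the minus strand of chromosome 8 from 134249418 to 134314265. NDRG2 is on the minus strand of chromosome 14 from 21484922 to 21539031, and NDRG3 on the minus strand of chromosome 20 from 35280169 to 35374493. NDRG4 is on the plus strand of chromosome 16 from 58496750 to 58547532. Their reference transcripts (MANE Select) were of similar length, 3025 bases in 16 exons for NDRG1, 2978 in 16 for NDRG2, 2971 in 16 for NDRG3 and 3208 in 15 for NDRG4. The paralogs had few stretches in common: none of 12635 stretches of 25 bases in the exons of NDRG1 occurred in another member, and other pairs shared at most 3. The exons of NDRG2 overlapped those of TPPP2, on the opposite strand, over 236 bases (3.13% of its exonic bases). Whether the counting used strand is not given in the sources used here, so reads from this overlap could not be assigned to NDRG2 with certainty.

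NDRG1 rose strongly in hypoxia, and it was the one gene called among the 3 members tested. In normoxia + DMSO it lay between 27.8 and 44.1 CPM (median 31.1), and in hypoxia + DMSO between 237 and 376 CPM (median 334). Every hypoxic library stood above every normoxic one. The group means were 33.2 ± 6.02 and 316 ± 58.6 CPM (SD, n = 6), a fold change of 9.51 (95% interval 7.70 to 11.8). On the log2 scale this was 3.25 (standard error 0.15, adjusted p = 5.68e-15 by edgeR's quasi-likelihood test with Benjamini-Hochberg adjustment). NDRG1 had the smallest p-value of all 11735 genes and the 5th largest log2 fold change. It was 1 of 136 genes called higher in this comparison (1.16% of those tested), and 16 genes (0.136%) were called lower. In bulk RNA, a change in the level per cell and a change in the proportion of cells expressing a gene cannot be told apart.

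NDRG1 also rose in hypoxia when ITE was present. It lay between 31.7 and 41.1 CPM in normoxia + ITE (median 36.8) and between 206 and 335 CPM in hypoxia + ITE (median 298). Again no libraries of the groups overlapped. The means were 36.5 ± 3.26 and 283 ± 48.6 CPM (SD, n = 6), a fold change of 7.78 (95% interval 6.31 to 9.60). The log2 fold change was 2.96 (standard error 0.15, edgeR adjusted p = 5.07e-14), the 9th largest among all genes tested and once more the one with the smallest p-value. This comparison called 222 genes higher (1.89%) and 54 lower (0.46%). It shares no library with the comparison in DMSO.

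The NDRG1 response to hypoxia was smaller with ITE than without it, but not beyond the error. On the linear scale NDRG1 gained 283 CPM with DMSO and 247 CPM with ITE, so that the gain with ITE was 87.1% of that with DMSO. This share ranged from 82.5%, without hypoxia + DMSO replicate 1, to 92.5%, without hypoxia + ITE replicate 1, when libraries were left out one at a time. On the log2 scale the difference between the responses (the interaction) was -0.29 (standard error 0.19, 95% interval -0.69 to 0.11, unadjusted p = 0.148, edgeR adjusted p = 0.915). As a ratio of fold changes this was 0.818, with an interval from 0.62 to 1.08. No gene passed the threshold for the interaction in edgeR (0% of 11735, with 374 at an unadjusted p-value under 0.05) or in DESeq2. Without the 2 shallowest libraries, an alternative chosen after seeing the data, the interaction of NDRG1 was -0.19 (edgeR adjusted p = 0.814).

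Taken at fixed oxygen, ITE did not move NDRG1 past the threshold in either direction. In normoxia the 6 libraries with ITE all lay above the DMSO median of 31.1 CPM, but none exceeded the highest DMSO library, replicate 4 at 44.1 CPM. The log2 fold change was 0.14 (95% interval -0.15 to 0.42, edgeR adjusted p = 1.0), and 6 genes (0.0511%) were called in this comparison. In hypoxia 5 of 6 libraries with ITE lay below the DMSO median of 334 CPM, and the groups overlapped. NDRG1 was lower with ITE in 6 of 6 same-numbered hypoxic libraries, although the numbers were not shown to pair the samples, and with the replicate number as a block the log2 fold change was -0.15 (edgeR adjusted p = 0.660). Without the block it was also -0.15 (95% interval -0.43 to 0.13, edgeR adjusted p = 0.714), and 7 genes (0.0597%) were called. These intervals leave room for NDRG1 levels between 0.902 and 1.34 times the vehicle level in normoxia, and between 0.741 and 1.09 times in hypoxia. Set against neither stimulus, hypoxia and ITE together raised NDRG1 by 3.10 on the log2 scale (95% interval 2.79 to 3.40, edgeR adjusted p = 1.61e-14), in a comparison that called 210 genes (1.79%) higher.

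**Figure D1:**
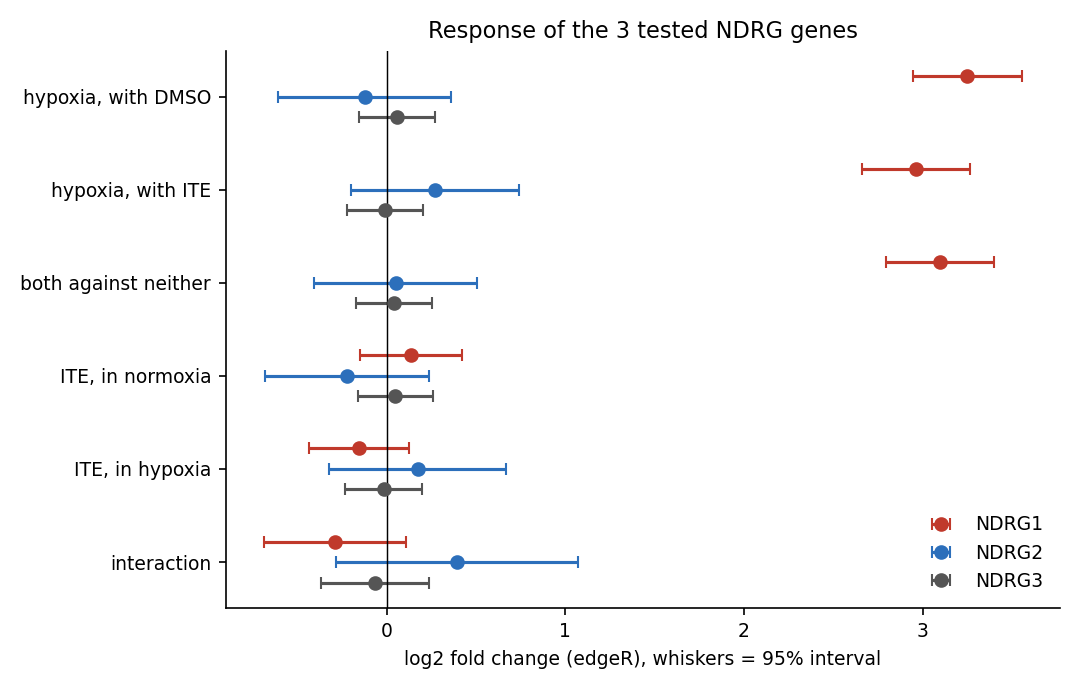
Log2 fold change from edgeR (horizontal axis) of NDRG1, NDRG2 and NDRG3 in the 4 pairwise comparisons, in both stimuli against neither and for the interaction (hypoxia response with ITE minus that with DMSO). Whiskers are 95% intervals. NDRG1 lies at 2.96 to 3.25 in the comparisons that include hypoxia against normoxia, and all other intervals include 0.

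NDRG3, the lactate-responsive paralog, was the most abundant member in normoxia and kept to a narrow range throughout. It lay between 46.2 and 60.4 CPM in normoxia + DMSO (median 55.4) and between 47.8 and 65.5 CPM in normoxia + ITE (median 53.8). In hypoxia it lay between 50.9 and 60.0 CPM with DMSO (median 56.0) and between 49.9 and 61.7 CPM with ITE (median 55.3). The 4 groups overlapped throughout, and their means differed by less than the SD within any group. The log2 fold change in hypoxia was 0.06 with DMSO (95% interval -0.16 to 0.27, edgeR adjusted p = 0.917) and -0.01 with ITE (95% interval -0.22 to 0.20, edgeR adjusted p = 0.980). The intervals allow a change of the NDRG3 transcript to between 0.897 and 1.21 times its level with DMSO, and between 0.859 and 1.15 times with ITE. Its response to ITE was 0.05 in normoxia and -0.02 in hypoxia on the log2 scale, neither past the threshold.

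NDRG2, the paralog known from astrocytes, was expressed at a low level and was not called in any comparison. It lay between 3.17 and 5.08 CPM in normoxia + DMSO (median 3.95) and between 2.29 and 4.24 CPM in normoxia + ITE (median 3.58). In hypoxia it lay between 2.86 and 5.50 CPM with DMSO (median 3.84) and between 1.49 and 5.18 CPM with ITE (median 4.53). All groups overlapped. The highest value with DMSO and the lowest with ITE in hypoxia came from the shallowest libraries, in which NDRG2 rested on 4 counts (hypoxia + DMSO replicate 2) and on 2 counts (hypoxia + ITE replicate 1). The log2 fold change in hypoxia was -0.12 with DMSO (95% interval -0.61 to 0.36, edgeR adjusted p = 0.923) and 0.27 with ITE (95% interval -0.20 to 0.74, edgeR adjusted p = 0.526). The intervals allow a change of NDRG2 to between 0.656 and 1.28 times its level with DMSO, and to between 0.871 and 1.67 times with ITE. ITE gave -0.22 in normoxia and 0.17 in hypoxia, and the interaction was 0.39 (95% interval -0.28 to 1.07), none past the threshold.

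NDRG4 was close to the limit of detection. It had between 0 and 58 counts per library and was at 0 in 4 of 24 libraries, 2 of normoxia + ITE and 1 of each hypoxic group. The count pooled over the 6 libraries was 89 in normoxia + DMSO, which corresponds to 0.449 CPM (95% exact Poisson interval 0.36 to 0.552), and 25 in normoxia + ITE (0.281 CPM, interval 0.182 to 0.415). In hypoxia it was 21 with DMSO (0.323 CPM, interval 0.2 to 0.493) and 65 with ITE (0.402 CPM, interval 0.31 to 0.512). All pooled intervals overlapped, and they cover counting error alone. Since NDRG4 did not pass the filter on low counts, no test of it is given in the model above, and in a fit without the filter no comparison passed the threshold (smallest edgeR adjusted p = 0.490, hypoxia with ITE, log2 fold change 0.99).

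Only levels per length can be ranked between genes. Per kilobase of the reference transcript, NDRG3 led in normoxia + DMSO with 18.1 ± 1.96 CPM per kb (SD, n = 6), followed by NDRG1 with 10.96 ± 1.99, NDRG2 with 1.35 ± 0.28 and NDRG4 with 0.106 ± 0.058. Normoxia + ITE had the same order, with 18.7 ± 2.24, 12.1 ± 1.08, 1.16 ± 0.23 and 0.0689 ± 0.066 CPM per kb. NDRG1 was below NDRG3 in 12 of 12 normoxic libraries, by a ratio between 0.475 and 0.925. In hypoxia the order of this pair was exchanged: NDRG1 reached 104.6 ± 19.4 CPM per kb with DMSO and 93.6 ± 16.1 with ITE, against 18.9 ± 1.11 and 18.7 ± 1.61 for NDRG3. NDRG1 was above NDRG3 in 12 of 12 hypoxic libraries, by a ratio between 3.41 and 6.59. With the summed length of all annotated exons, which is 12002 bases for NDRG1 and 3260 for NDRG3, it was above in 11 of 12, the exception being hypoxia + ITE replicate 1 at a ratio of 0.944.

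The share of NDRG1 in the summed counts of the 4 genes gives the same shift without any normalisation between libraries. In normoxia + DMSO the share lay between 31.5% and 45.9% (median 35.1%), and in hypoxia + DMSO between 80.9% and 86.2% (median 84.4%). With ITE it lay between 31.4% and 43.2% (median 39.1%) in normoxia and between 77.2% and 85.1% (median 83.0%) in hypoxia. No hypoxic library overlapped a normoxic one. The mean share rose by 47.4 percentage points with DMSO and by 43.99 with ITE (n = 6 in each group, two-sided exact permutation p = 0.00216 for each, the smallest that 6 against 6 libraries allow, adjusted p = 0.00495 over 16 comparisons). ITE changed the share by 1.99 percentage points in normoxia (exact permutation p = 0.502, adjusted 0.574) and by -1.44 in hypoxia (exact permutation p = 0.338, adjusted 0.491), both within the spread of the libraries. Summed over the family, expression went from 91.2 ± 6.53 to 377 ± 61.6 CPM with DMSO and from 95.7 ± 5.31 to 343 ± 50.5 CPM with ITE (SD, n = 6).

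The difference between NDRG1 and each paralog was also tested within libraries, where depth cancels. These differences and the share above use the same NDRG1 counts as the earlier tests. They restate its rise relative to the paralogs and are not separate evidence for it. The log2 CPM of NDRG1 minus that of NDRG3 went from -0.70 to 2.47 with DMSO, a shift of 3.18, and from -0.60 to 2.34 with ITE, a shift of 2.94. Against NDRG2 the shifts were 3.26 and 2.83. None of these groups overlapped (n = 6 in each group, exact permutation p = 0.00216, adjusted p = 0.00495 for each). Against NDRG4, whose log2 values depend on the prior count, the shift was 3.57 with DMSO (exact permutation p = 0.00216, adjusted 0.00495) and 2.23 with ITE (exact permutation p = 0.0152, adjusted 0.0303). With a prior count of 0.5 in place of 2, the latter was 1.93 and no longer passed (exact permutation p = 0.132). None of the differences from NDRG2, NDRG3 or NDRG4 was moved past the threshold by ITE. The one nearest to it, NDRG1 minus NDRG2 in normoxia, was higher with ITE by 0.36 (exact permutation p = 0.0887, adjusted 0.158).

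Set among 20 known HIF target genes, of which 18 could be tested, NDRG1 was near the top of the range. CA9 and EGLN3 did not pass the filter on low counts and showed no rise. In hypoxia CA9 had a mean of 0 CPM with DMSO and with ITE, and EGLN3 0.0042 and 0.0037 CPM. The counts below thus leave out listed targets that were hardly expressed. In hypoxia with DMSO 16 of the 18 were called higher and 0 lower, where 1.16% and 0.136% of all genes were. The median log2 fold change of the 18 was 1.54 against -0.003 over all genes tested. DDIT4, an inhibitor of mTOR signalling, responded most (3.53), and EGLN1, which encodes the oxygen sensor PHD2, least among those called (0.82). DDIT4 and PFKFB4 (3.41), a regulator of glycolysis, were the list members above NDRG1. ENO1 (0.48, adjusted p = 0.264) and ARL10 (1.08, adjusted p = 0.401) did not pass. Some genes on this list, among them PFKFB4, INSIG2, ANKRD37 and ARL10, were chosen by the study as targets in these cells, so the direction of the list is not independent evidence. The study also used NDRG1 itself as a canonical HIF target in these cells, so its place near the top is not independent evidence either.

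With ITE present, 17 of the 18 HIF targets were called higher in hypoxia, with a median of 1.42 against 0.02 over all genes. DDIT4 (3.14), PFKFB4 (3.61) and ANGPTL4 (3.47), a secreted inhibitor of lipoprotein lipase, were above NDRG1 there. For ITE in hypoxia none of the 18 was called, and the median was -0.21 against 0.02 over all genes, with 5 above 0 and NDRG1 at -0.15. The interaction had a median of -0.19 over the list, with 0 called and 5 above 0. NDRG1, at -0.29, lay within the range of the list, which ran from -0.51 to 1.07.

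**Figure D2:**
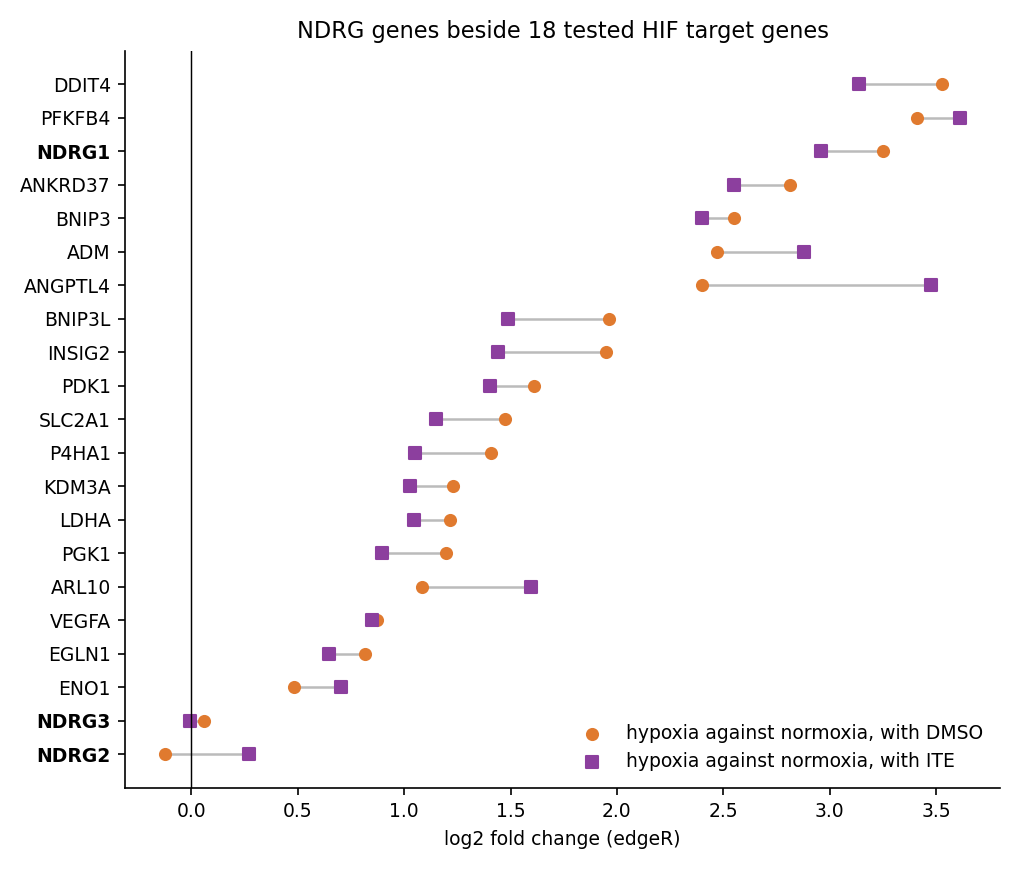
Log2 fold change in hypoxia (horizontal axis, edgeR) with DMSO (circles) and with ITE (squares) for the 18 tested HIF target genes and, in bold, the 3 tested NDRG genes, ordered by the value with DMSO. NDRG1 stands 3rd from the top at 3.25 and 2.96, and NDRG2 and NDRG3 stand below every target shown.

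Of 20 gene symbols listed upstream of NDRG1 or its protein, relatives of such genes included, 18 could be tested at the transcript level. MYCL and MYCL1 on this list are symbols of the same gene, counted here as MYCL1. In hypoxia 2 of them were called higher with DMSO, where 1.16% of all genes were, and 2 with ITE, where 1.89% were, with 0 lower in either. They were MXI1, a MAX-binding antagonist of MYC (1.03 with DMSO and 0.80 with ITE), and EGLN1 (0.82 and 0.65). EGLN1 is also on the list of HIF targets. The list's median was -0.10 with DMSO and -0.03 with ITE. MYC, a repressor of NDRG1, had 172 CPM in normoxia + DMSO and a log2 fold change in hypoxia of 0.12 (edgeR adjusted p = 0.832), and SGK1, a kinase of the NDRG1 protein, had -0.21 (edgeR adjusted p = 0.851). EGR1, an activator of NDRG1, had -1.90 with DMSO (edgeR adjusted p = 0.0539) at 2.64 CPM in normoxia + DMSO. MYCN was at 0.262 CPM there and was not tested. None of the list was called for ITE in either oxygen level.

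Of 10 genes whose products bind or act with NDRG proteins, 9 could be tested and 1 was called higher in hypoxia, in both settings. Over all genes tested, 1.16% were called higher with DMSO and 1.89% with ITE. The partner called was LDHA, the lactate dehydrogenase subunit that favours lactate production, with 1.21 with DMSO and 1.05 with ITE. LDHA is also on the list of HIF targets. The median of the partners was -0.0185 with DMSO and -0.00385 with ITE. CDH1, the cargo of NDRG1 in E-cadherin recycling, was at 0.445 CPM in normoxia + DMSO and was not tested. The list of AHR targets gives the response to ITE itself. Of 12 listed, 9 could be tested, and 4 were called higher for ITE in normoxia and 5 in hypoxia, led by CYP1B1 (2.51 and 2.35). CYP1A1, CYP1A2 and LRAT did not pass the filter on low counts, with group means at or below 0.0252 CPM. AHRR was tested and not called (0.10 and -0.42). The study used CYP1B1, ALDH1A3, CYP27A1, BMF and ASB2 as AHR targets in these cells, so the list's direction is not independent evidence. Over all genes tested, 0.0511% and 0.0597% were called for ITE in normoxia and in hypoxia. NDRG1, NDRG2 and NDRG3 were not called in either.

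Across all 24 libraries the genes whose log2 CPM was most like that of NDRG1 were DDIT4 (Pearson's r = 0.99), BNIP3 (0.98), ENO2 (0.98), HK2 (0.98) and BNIP3L (0.97), out of 11624 candidates with a mean of at least 1 CPM. All 5 rose in hypoxia as NDRG1 did, and the likeness is a description in which group differences, library and depth are shared. With group means removed, the highest correlations with NDRG1 were lower, at 0.73 for LOC100506895, 0.70 for GPR146 and 0.70 for CHD2, 0.70 for MLH3 and 0.67 for LOC100287042. For NDRG2 the most similar genes were KISS1 (0.83), DOK1 (0.81) and ANKRD18B (0.81), and for NDRG3 they were ZNF460 (0.67), ZNF549 (0.62) and BNC2 (0.62). With group means removed, NDRG2 was most like DOK1 (0.85), KISS1 (0.83) and HSPA2 (0.83), and NDRG3 most like ZNF460 (0.74), BNC2 (0.63) and ZNF549 (0.61). Between the members, r was 0.11 for NDRG1 and NDRG2, 0.13 for NDRG1 and NDRG3 and -0.14 for NDRG2 and NDRG3 over the 24 libraries. With group means removed it was 0.43, -0.07 and -0.14 in the same order.

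The markers of the line differed somewhat in level between the groups. Summed over the 8 renal and epithelial markers, the group mean was 3788 CPM in normoxia + DMSO, 3621 in normoxia + ITE, 4404 in hypoxia + DMSO and 4763 in hypoxia + ITE. VIM, which encodes the mesenchymal filament protein vimentin, made up the greater part of these sums, with 2041, 2012, 2497 and 2413 CPM in the same order, and was not called in hypoxia with DMSO (log2 fold change 0.29, edgeR adjusted p = 0.0821) or with ITE (0.26, edgeR adjusted p = 0.0784). Of the 7 markers tested, 0 were called in hypoxia with DMSO and 1 with ITE, KRT19 at 0.89 (edgeR adjusted p = 0.037). The background over all genes was 1.16% called higher with DMSO and 1.89% with ITE. KRT19 varied widely between the hypoxic libraries given ITE (346 ± 242 CPM, SD, n = 6), unlike the normoxic ones given ITE (187 ± 18.5). KRT8 (901 ± 544 CPM) and KRT18 (677 ± 443 CPM) were also widely spread in hypoxia + ITE. The KRT19 call and the higher sum of that group thus come with a large spread between libraries. Without hypoxia + ITE replicate 6, hypoxia + DMSO replicate 2 and normoxia + DMSO replicate 4 together, the log2 fold change of NDRG1 in hypoxia was 3.32 with DMSO and 2.94 with ITE, and the interaction was -0.38 (edgeR adjusted p = 1.0).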

How the data were processed

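The authors trimmed adaptors with Trim Galore (0.3.3), aligned reads to GRCh37 with HISAT2, removed fragments that did not map uniquely with Picard (2.0.1) and counted reads per UCSC gene with HTSeq (0.5.4p3, intersection-strict). They deposited raw counts per gene symbol, 1 library each, without normalisation. Libraries were polyA-selected and made with a directional kit. The strand setting of the counting is not given in the sources used here. Multi-mapping removal lowers counts of genes with near-identical copies.

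Counts were analysed in R 4.3.3 with edgeR 4.0.16: filterByExpr (minimum count 10, 11735 of 23106 genes), TMM, and quasi-likelihood tests on a fit of 4 group means to 24 libraries. P-values were two-sided and adjusted by the Benjamini-Hochberg method, threshold 0.05. CPM use TMM library sizes, log2 CPM a prior count of 2. Intervals are 95%. Shares and within-library differences were compared by exact permutation of 6 against 6 libraries, adjusted over 16 comparisons. Alternatives used DESeq2 1.42.0 and limma 3.58.1, other normalisations and filters, a replicate block, the compared groups alone and left-out libraries. The scripts were tested on simulated data. For hypoxia with DMSO, 72% of genes given an absolute log2 fold change of 1 were called, and 12% of those given 0.5. False calls made up 2.33%. Absence of a call alone therefore says little about small changes. Groups came from the sample labels. The members and gene lists were chosen with earlier results of these data known. Named genes are the 4 members, the extremes of each list among those past the threshold, genes a result turns on, and the 5 (NDRG1) or 3 (other members) most correlated genes with a mean of at least 1 CPM. NDRG1 and NDRG3 start-site windows were not analysed here. One of the renal markers and one of the partner genes chosen for the lists are not reported here.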

Additional observations from a re-analysis of the deposited data

Results flagged for a closer look

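Within each group of 6 libraries, a library was marked when its gap to the nearest other library exceeded Dixon's 95% critical value, a rule that chance meets in about 1 of 20 groups. It marked 6 of 40 groups, where chance gives about 2, over 10 quantities of which several share the same counts. NDRG4 stood highest in replicate 6 of both hypoxic groups, at 0.923 CPM with DMSO (6 counts) and 1.69 CPM with ITE (7 counts). The log2 CPM of NDRG1 minus NDRG2 was highest in normoxia + ITE replicate 2, at 3.998, where NDRG2 had 12 counts. The other marks concern depth, with total counts of 48357647 in normoxia + ITE replicate 5, 37995687 in hypoxia + DMSO replicate 5 and 87404330 in hypoxia + ITE replicate 4. No library was marked for the level of NDRG1, NDRG2 or NDRG3, or for the share of NDRG1. No NDRG gene differed in its hypoxia response between DMSO and ITE past the threshold.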

How the results depend on the processing

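NDRG1 was called higher in hypoxia, with DMSO, with ITE and for both stimuli against neither, under every alternative run, and with any 1 library left out its log2 fold change ranged from 3.19 to 3.35, 2.91 to 3.03 and 3.04 to 3.20. No other member was called under any of them. Of 195 values of NDRG1 to NDRG3 under the other alternatives, 6 changed sign, none of them past the threshold. For NDRG3 in hypoxia these were 0.000992 with ITE under RLE normalisation and -0.0332 with DMSO under total counts alone. For both stimuli against neither they were NDRG2 at -0.11 and NDRG3 at -0.11 under total counts alone, NDRG2 at -0.0102 under limma-voom with quality weights, and NDRG3 at -0.016 without the 3 libraries that stood apart. Total counts alone moved the median of all genes to -0.13 in that comparison. NDRG1 minus NDRG4 in hypoxia with ITE was 1.93 with a prior count of 0.5. The causes were not tested.

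With 1 library left out, NDRG1 ranged from 0.09 to 0.24 for ITE in normoxia, from -0.22 to -0.08 for ITE in hypoxia and from -0.39 to -0.22 for the interaction. NDRG2 for both stimuli ranged from -0.0363 to 0.14, and NDRG3 from -0.0468 to 0.0439 for hypoxia with ITE, from -0.00263 to 0.0881 for ITE in normoxia and from -0.054 to 0.018 for ITE in hypoxia. NDRG1 minus NDRG2 ranged from 0.24 to 0.45 for ITE in normoxia, with an unadjusted exact permutation p as low as 0.0195 (without normoxia + DMSO replicate 1 or normoxia + ITE replicate 4 it was under 0.05), and from -0.23 to 0.0242 for ITE in hypoxia.

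The number of genes called over the whole table depended more on the processing. In the order hypoxia with DMSO (152), with ITE (276), normoxic ITE (6) and both stimuli (272), DESeq2 gave 249, 688, 14 and 647, the compared groups alone 233, 85, 30 and 88, and limma-voom with quality weights 840, 605, 112 and 721. For ITE in hypoxia (7) the compared groups alone gave 1. Total counts alone gave 172 for hypoxia with ITE. Leaving out the 3 libraries gave 269 for hypoxia with DMSO, and leaving out the 2 shallowest gave 475 for hypoxia with ITE, 4 for ITE in hypoxia and 465 for both stimuli. With any 1 library left out the numbers ranged from 112 to 303 (without hypoxia + ITE replicate 6), 159 to 811 (without its replicate 5), 4 to 13 (without its replicate 6), 4 to 8 (ITE in hypoxia) and 169 to 738 (without its replicate 5), and the interaction stayed at 0.

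Same-numbered replicates did not deviate together in every pair (lowest correlation -0.20, ITE in hypoxia). The mean correlation ran from 0.02 (ITE in hypoxia) to 0.25 (ITE in normoxia, 5 of 6 pairs over 0.1). Whether the numbers pair the samples was thus not settled, and the main fit did not use them. With the replicate number as a block, NDRG1 was 3.24 in hypoxia with DMSO and 2.94 with ITE, no call on a member changed, and 13 genes were called for ITE in normoxia. Depth limits NDRG2 in the shallowest libraries and NDRG4 in all.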
